A study of Mus musculus with 3 samples.

Results

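The kinesin genes and the centromere protein genes were followed in RNA-seq counts of normal mouse thymus. All protein-coding genes whose GENCODE M21 symbol begins with Kif and a digit, or reads Cenp, a letter and an optional number, were taken by Ensembl identifier, which gave 60 genes (39 Kif and 21 Cenp) of the 52636 in the files, and all 60 were present. The rule itself uses symbols and no expression value, though it was proposed with earlier results of these data known. The samples are 3 control thymi, numbered as in the labels (thymus 1, 2 and 3). Per the labels they come from C57BL/6 mice, are of the genotype Cic flox/flox and carry the mark TAM, with tamoxifen as the treatment. The labels name no Cre driver, age or sex, and do not say that each library is another animal. A p-value therefore reflects no more than how far these libraries differ, and that may be technical. The study set T cell lymphomas lacking Cic, the gene of the repressor capicua, beside thymus of control littermates. The lymphomas are not analysed here, so there is 1 group and no contrast between groups.

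Kinesins are motor proteins that use ATP to move along microtubules or to take them apart. Some carry vesicles and organelles, some build cilia, and a set of them assembles the mitotic spindle, moves chromosomes and completes cell division. Centromere proteins mark the centromere with the histone H3 variant CENP-A and form on it the constitutive centromere-associated network, the base on which the kinetochore binds spindle microtubules. The thymus holds many dividing thymocytes, above all before and around the double-positive stage, in which CD4 and CD8 are both present. Genes of the mitotic set are transcribed mostly late in the cell cycle in dividing cells.

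Between 25408442 and 30414788 reads per library fell on genes in the transcribed orientation. Levels are given as CPM, the count relative to library size with TMM scaling, and, wherever genes are compared, as CPM per kilobase of annotated exon. Errors are SDs over the 3 libraries. A count of 3, the limit set by 0 reads, corresponds to 0.0985, 0.102 and 0.122 CPM in thymus 1, 2 and 3, and covers counting error only. All 6 thymocyte markers examined were far above that limit, Rag1 at 4069 ± 169 CPM and Cd4 at 1058 ± 49.2, and so were all 6 markers of thymic epithelium, with Prss16 at 905 ± 51.8 CPM (SD, n = 3). Erythroid markers set thymus 1 apart, with a sum over 4 genes of 829.8, 37.2 and 179 CPM. The tissue is bulk, so fewer cells of a type and less RNA per cell cannot be told apart.

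Of the 60 genes, 53 reached 1 CPM in every thymus, 6 stayed below 1 CPM in every thymus, and Kif19a crossed that line. Of all 21896 protein-coding identifiers, 58.4% reached 1 CPM in every thymus. The 53 included all 12 mitotic kinesins (Cenpe, which encodes a kinesin, is counted among them), all 15 transport kinesins, all 15 genes of the constitutive centromere network and all 5 remaining Cenp genes. Of the 8 kinesins of cilia and centrioles 4 were among them, and of the 5 remaining Kif genes 2. Kif2a and Kif2b, relatives of the mitotic kinesin Kif2c, were placed with the kinesins of cilia and centrioles, and Kif2b had 0 reads. A filter on low counts left 54 of the 60 for the tests, and the 6 below 1 CPM were the ones it dropped.

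**Figure D1:**
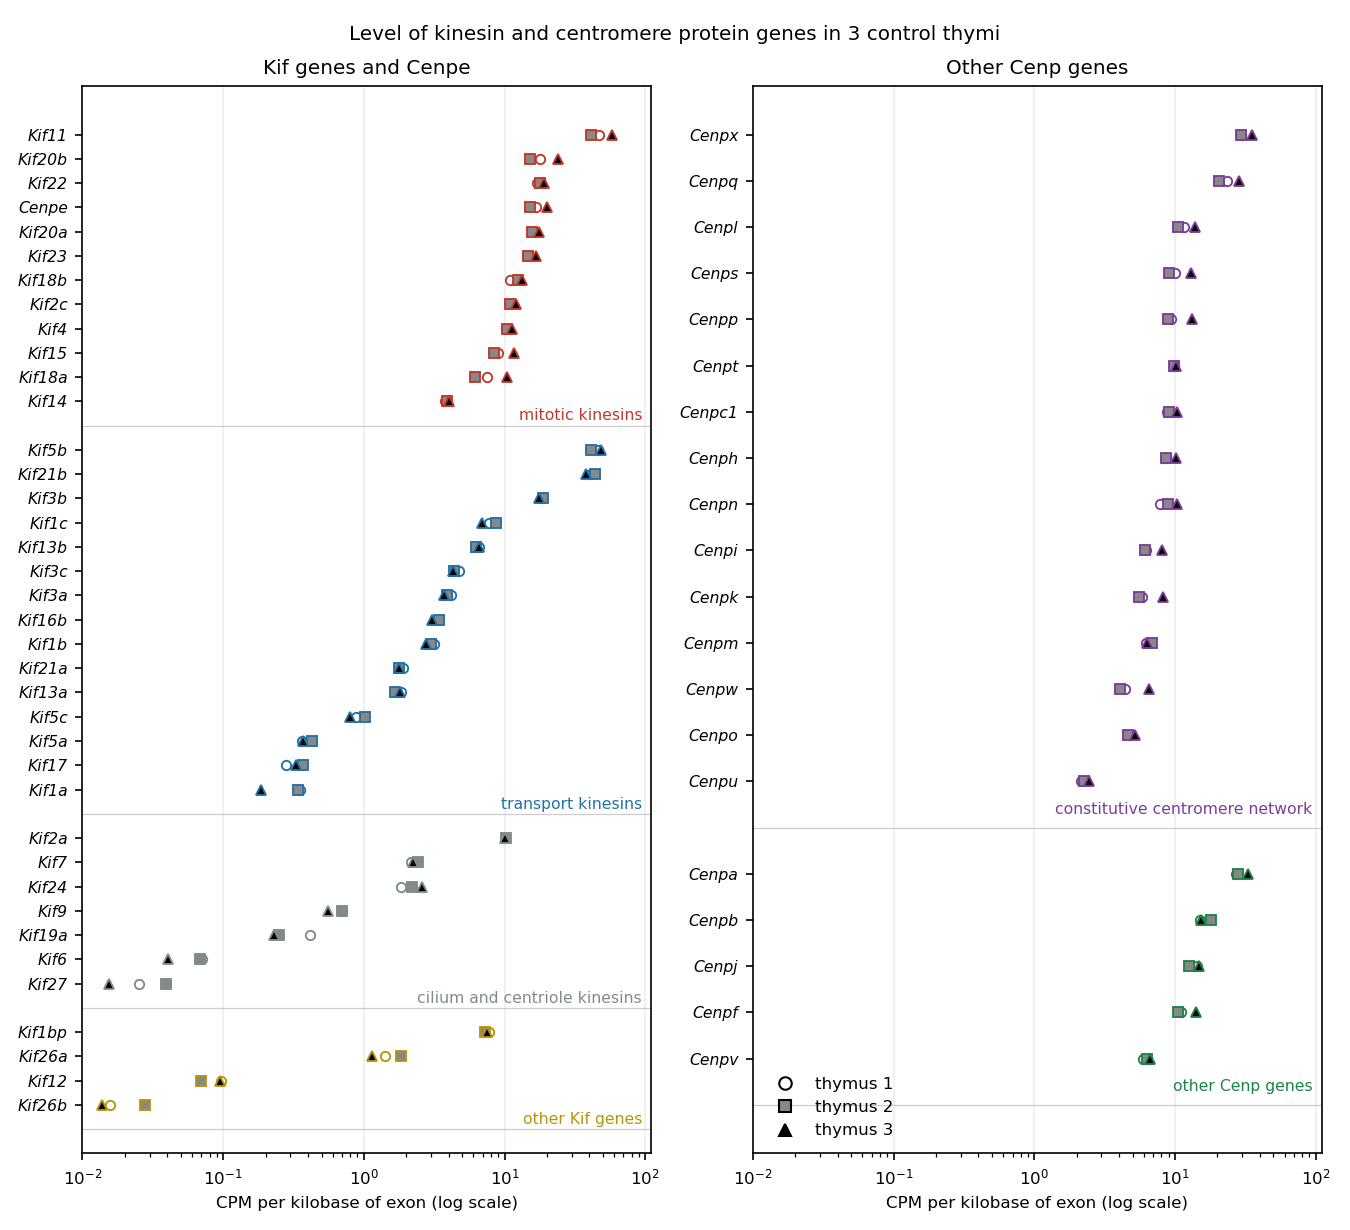
Level of each gene in each control thymus, as CPM per kilobase of exon on a log axis, with 1 symbol per thymus and genes grouped by role. Kif2b and Kif28 had 0 reads in all 3 libraries and are not drawn. Mitotic kinesins lie between 3.89 and 48.9 on average, while transport kinesins run from 0.294 to 45.4.

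The mitotic kinesins were all expressed, at mean levels from 3.89 (Kif14) to 48.9 (Kif11) CPM per kilobase. Their median level was 12.7, 13.6 and 15.0 CPM per kilobase in thymus 1, 2 and 3, against 3.35, 3.41 and 3.05 for the transport kinesins. The ratio of these medians was 3.80, 3.99 and 4.93 (mean 4.24 ± 0.605, SD, n = 3). It was above 1 in each library, and the transport list holds single genes as abundant as any mitotic one, so the ratio describes the lists and not every gene in them.

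Kif11 led the group and had the highest mean level per kilobase of all 60 genes, though within the spread of Kif5b and Kif21b, both of which were above it in thymus 2. It encodes the motor that slides spindle poles apart (chromosome 19, 37376403 to 37421859, plus strand, GRCm38). Its level was 353, 307 and 435 CPM in thymus 1, 2 and 3, or 48.9 ± 8.67 CPM per kilobase, above 92.7% of the coding genes expressed in these thymi. Kif20b, a motor of cell division, had 125, 105 and 166 CPM. Kif22, a motor that binds chromosome arms, had 82.9, 87.9 and 93.1 CPM. Cenpe, the motor that brings chromosomes to the middle of the spindle, had 145, 131 and 171 CPM. Kif20a, which acts at the midzone and in cytokinesis, had 70.9, 67.6 and 76.7 CPM. In all 5 genes thymus 3 was the highest library. The other 7 ran from 3.89 CPM per kilobase (Kif14, a cytokinesis motor, at 40.3 ± 1.35 CPM) to 15.3 (Kif23, a subunit of centralspindlin, at 121 ± 10.2 CPM).

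The mitotic kinesins also shared a promoter feature. The CHR element (TTTGAA, searched on both strands) is a short motif bound by the DREAM and MMB complexes, which hold cell cycle genes off in resting cells and turn them on late in the cycle. The CCAAT box (CCAAT, both strands) is bound by NF-Y and often accompanies it. Promoter windows of 300 bases, 250 before to 50 after the start, were taken from RefSeq (GRCm38.p6) by symbol, and 52 of the 60 genes matched. A CHR element lay in the window of 9 of 11 mitotic kinesins, against 18.5% of 17492 protein-coding genes with a window, 1 of 11 transport kinesins and 3 of 15 genes of the centromere network. Within 25 bases of the start, a distance chosen after the positions were seen, it was found in 7 of the 11 mitotic kinesins, 2 of the 5 other Cenp genes, 2 of the 15 centromere network genes and 1 of the 3 other Kif genes with a window, and in 2.498% of the coding genes. A CCAAT box lay in 7 of 11 mitotic kinesins and 11 of 15 centromere network genes, against 42.3% of the coding genes and 3 of 11 transport kinesins. The variant TTCGAA, its own reverse complement, was in 0 of the 11, and in 2.13% of the coding genes. The E2F element TTTGGCGC (both strands) was in 2 of the 11, those of Kif15 and Kif18a, against 0.726% of the coding genes, and its variant TTTCGCGC in none of the members. The only overlap between motifs seen in the members was in Cenpw, where a CCAAT box and a CHR element share a base. These matches are letters in a window around a RefSeq start, and neither binding nor the start used in thymus was measured. Among the mitotic kinesins with a CHR match, the whole windows of Kif14, Kif2c and Kif4 lie inside the annotated gene.

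The stretches below run from 75 bases before to 25 after the RefSeq start, 5′ to 3′ on the strand of the gene. Those with a CHR element were picked because it lies within 25 bases of the start. Its similar place in them follows from that choice. Capitals mark CHR elements (TTTGAA, or TTCAAA where it lies on the other strand) and CCAAT boxes (CCAAT, or ATTGG on the other strand). The first 7 are the mitotic kinesins with a CHR element close to the start, followed by Cenpa and Cenpf, and then by Cenpe and Kif18a, the mitotic kinesins whose windows hold none.
Kif11 (chr19:37376307-37376406, plus strand): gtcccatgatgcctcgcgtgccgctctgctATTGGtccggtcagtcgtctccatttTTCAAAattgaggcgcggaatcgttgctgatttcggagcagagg
Kif15 (chr9:122951006-122951105, plus strand): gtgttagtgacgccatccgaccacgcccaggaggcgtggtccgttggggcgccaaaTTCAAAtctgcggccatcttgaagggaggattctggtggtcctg
Kif22 (chr7:127042396-127042495, minus strand): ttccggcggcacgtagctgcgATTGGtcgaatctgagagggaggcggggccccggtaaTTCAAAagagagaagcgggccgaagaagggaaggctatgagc
Kif18b (chr11:102925100-102925199, minus strand): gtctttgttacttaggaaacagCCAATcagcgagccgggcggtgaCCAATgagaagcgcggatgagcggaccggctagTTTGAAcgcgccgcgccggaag
Kif23 (chr9:61946775-61946874, minus strand): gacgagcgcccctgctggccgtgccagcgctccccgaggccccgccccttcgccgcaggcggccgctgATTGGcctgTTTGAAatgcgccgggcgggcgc
Kif4 (chrX:100625990-100626089, plus strand): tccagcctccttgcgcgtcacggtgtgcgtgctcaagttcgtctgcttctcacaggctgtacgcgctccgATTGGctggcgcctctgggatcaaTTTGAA
Kif20b (chr19:34922283-34922382, plus strand): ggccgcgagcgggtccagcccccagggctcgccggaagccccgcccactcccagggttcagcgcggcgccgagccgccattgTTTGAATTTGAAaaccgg
Cenpa (chr5:30666811-30666910, plus strand): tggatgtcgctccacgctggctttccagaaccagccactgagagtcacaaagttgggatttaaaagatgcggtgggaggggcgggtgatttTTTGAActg
Cenpf (chr1:189688062-189688161, minus strand): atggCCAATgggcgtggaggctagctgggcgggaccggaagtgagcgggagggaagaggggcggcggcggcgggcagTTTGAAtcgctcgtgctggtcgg
Cenpe (chr3:135212488-135212587, plus strand): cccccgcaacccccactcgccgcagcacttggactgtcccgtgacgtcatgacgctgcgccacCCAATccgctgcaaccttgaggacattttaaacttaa
Kif18a (chr2:109280663-109280762, plus strand): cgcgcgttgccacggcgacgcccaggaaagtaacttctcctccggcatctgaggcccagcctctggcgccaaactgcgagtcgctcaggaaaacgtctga

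Counted from the RefSeq start, the motif begins between −19 (Kif11 and Kif15) and 19 (Kif4) in the stretches that hold it. Kif20b carries it as a direct repeat of 2 copies. The windows of Kif14 and Kif2c hold a CHR element only farther upstream, at −228 and −103. Both windows lie inside the annotated gene and not at its 5′ end. That of Kif14 begins at 136467598, where the gene begins at 136466343 (plus strand). That of Kif2c ends at 117179022, where the gene ends at 117182639 (minus strand). The window of Kif4 lies inside its gene as well. It begins at 100625815, where the gene begins at 100625737 (plus strand). Kif14, Kif2c and Kif4 are all counted among the 9 of 11, and Kif4 also among the 7 with a CHR element close to the start. The stretch printed for Cenpa begins at 30666811, inside a gene that begins at 30666777 (plus strand).

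**Figure D2:**
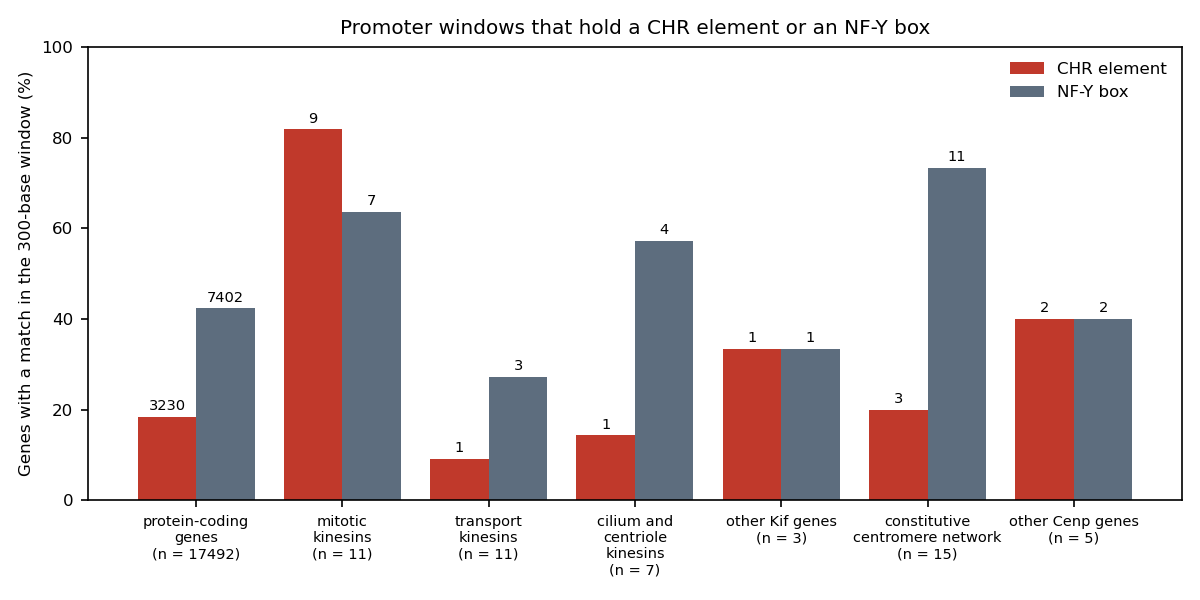
Percentage of genes whose 300-base promoter window holds a CHR element or a CCAAT box (labelled NF-Y box), by role, beside all protein-coding genes. The digits above the bars are numbers of genes, and n is the number with a window. The CHR bar of the mitotic kinesins stands for 9 of 11 genes and that of all coding genes for 18.5%.

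The transport kinesins were dominated by a few genes. Kif21b, a motor that also limits microtubule growth and is known from T cells, had the highest CPM of all 60 genes, at 503, 536 and 459.8 (chromosome 1, 136131389 to 136177998, plus strand). Kif5b, the widely expressed heavy chain of conventional kinesin, had 368, 329.7 and 389 CPM. Per kilobase Kif5b stood at 45.4 ± 3.78 and Kif21b at 41.0 ± 3.12, so their order is within the spread. Kif3b, a subunit of kinesin-2, had 104, 105 and 99.7 CPM. Kif1c, a carrier of vesicles, had 56.1, 62.8 and 50.6 CPM. Kif13b had 85.2, 81.8 and 85.1 CPM, and its libraries differed by less than those of most members, with a coefficient of variation of 2.29%.

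Close relatives of these genes were lower, by margins that varied widely. The level of Kif5b per kilobase was 51.5 ± 10.4 times that of Kif5c and 118 ± 18.9 times that of Kif5a, both heavy chains best known from neurons. Kif21b was 22.7 ± 1.83 times Kif21a. Kif13b was 3.66 ± 0.108 times Kif13a. Kif1c was only 2.62 ± 0.234 times Kif1b, and 1.66 ± 0.148 times per kilobase of the longest transcript. Kif3b was 4.65 ± 0.202 times Kif3a and 4.10 ± 0.212 times Kif3c, which also encode subunits of kinesin-2. Kifap3, the accessory subunit of kinesin-2, stood at 4.53 CPM per kilobase beside 3.94 for Kif3a and 4.47 for Kif3c. Kif1a, a neuronal carrier of synaptic vesicle precursors, had 3.28, 3.20 and 1.74 CPM. It had the lowest mean per kilobase of the transport kinesins, 0.294, beside 0.326 for Kif17, which was the lower of the pair in thymus 1. Each of these ratios held its direction in all 3 libraries. Related mitotic motors were closer to each other, with Kif20b at 1.14 ± 0.193 times Kif20a and Kif18b at 1.58 ± 0.395 times Kif18a. The first of these ratios was below 1 in thymus 2, at 0.973. Neuronal markers were low as well: of 6 examined, Snap25, Stmn2 and Rbfox3 were below 1 CPM in every thymus, and the 6 summed to 20.3, 20.9 and 17.7 CPM.

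Kinesins of cilia and centrioles were mostly weak in this tissue. Kif2a, a microtubule-depolymerising motor that also works outside cilia, was the exception at 64.7, 65.6 and 64.5 CPM. Its coefficient of variation of 0.965% was the smallest of all members above 1 CPM. Kif7, a regulator of Hedgehog signalling in the cilium, had 9.94, 11.2 and 10.2 CPM, and Kif24, a centriolar motor, had 14.8, 17.7 and 20.9 CPM. Kif9 had 2.987, 2.996 and 2.390 CPM. Kif19a, a motor that shortens cilia, had 1.67, 1.02 and 0.932 CPM from 51, 30 and 23 reads, and its coefficient of variation of 33.5% was the largest among members with a mean of at least 1 CPM. Kif6 had 13, 12 and 6 reads and Kif27 4, 6 and 2. Kif2b, a depolymerase known from testis, had 0 reads in every thymus, which allows up to 0.0985, 0.102 and 0.122 CPM. Markers of ciliated cells were low: of the 6 found, Rsph1 and Trp73 were below 1 CPM in every thymus, and the 6 summed to 12.8, 12.4 and 10.4 CPM.

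Among the remaining Kif genes, Kif1bp, which encodes a kinesin-binding protein and no motor, had 37.8, 35.6 and 36.4 CPM. Kif26a, a kinesin without motor activity, had 9.75, 12.6 and 7.90 CPM, and its relative Kif26b 7, 12 and 5 reads. Kif12 had 10, 7 and 8 reads, and Kif28 had 0 in every thymus.

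All 15 genes of the constitutive centromere network were expressed, between 2.27 and 31.3 CPM per kilobase. Cenpx, a small histone-fold subunit, had 31.7, 31.5 and 37.9 CPM and the highest level per kilobase, 31.3 ± 3.37. Cenpq, of the CENP-O group, had 60.9, 53.5 and 74.1 CPM. Cenpl, a partner of CENP-N, had 65.7, 59.4 and 79.1 CPM. Cenps, the histone-fold partner of CENP-X, had 19.0, 17.2 and 24.8 CPM, and Cenpp, again of the CENP-O group, 23.9, 22.8 and 33.7. In each of these 5 genes thymus 3 was highest and thymus 2 lowest. Cenpt, a subunit that reaches the outer kinetochore, was nearly flat, with 35.6, 35.7 and 37.1 CPM. Cenpw, its histone-fold partner, had 18.5, 17.2 and 27.6 CPM and a coefficient of variation of 26.9%, the third largest among members with a mean of at least 1 CPM. Thymus 3 was highest in both. Cenpu had the lowest level, 2.27 ± 0.156 CPM per kilobase.

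The other Cenp genes were led by Cenpa, the histone variant that defines the centromere (chromosome 5, 30666777 to 30674830, plus strand). It had 160.2, 165 and 193 CPM, or 29.5 ± 3.09 per kilobase. Cenpb, which binds a DNA box in centromeric repeats, had 73.5, 88.7 and 74.99 CPM and was 1 of only 2 Cenp genes not highest in thymus 3, with Cenpm. Cenpj, a centriole protein, had 70.3, 61.0 and 71.7 CPM. Cenpf, a large protein of the outer kinetochore, had 169, 161 and 219 CPM, and Cenpv had 10.7, 11.4 and 12.0.

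The members differed between thymi by role. All 12 mitotic kinesins, 14 of the 15 centromere network genes and 4 of the 5 other Cenp genes were highest in thymus 3, with library totals in place of TMM 11, 13 and 2. Of all 16548 genes tested 37.9% were highest there, and 28.1% with library totals. The count of mitotic kinesins depends on how the lists were drawn. Kif2a, a relative of Kif2c placed with the kinesins of cilia and centrioles, was nearly flat and highest in thymus 2. Of the 15 transport kinesins 1 was highest in thymus 3, Kif5b, and 10 were lowest there, against 39.7% of all genes, while 7 were highest in thymus 1 (24.1% of all genes) and 7 in thymus 2 (38.0%). The lowest library of the mitotic kinesins was thymus 1 in 6 genes (24.3% of all genes) and thymus 2 in the other 6 (36.0%). In the centromere network 10 of 15 genes were highest in thymus 3 and lowest in thymus 2, the order of 25.7% of all genes. The median difference between thymus 3 and thymus 2 was 0.19 in log2 CPM for mitotic kinesins, 0.26 for the centromere network and −0.11 for transport kinesins, beside −0.012 for all genes tested. Between thymus 3 and thymus 1, all 12 mitotic kinesins and all 15 centromere network genes were higher in thymus 3, against 50.1% of all genes. Between thymus 3 and thymus 2 this held for 12 of 12 and 14 of 15, against 48.2%. In thymus 2 against thymus 1, 6 of the 12 mitotic kinesins and 5 of the 15 centromere network genes were higher, against 50.1% of all genes.

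**Figure D3:**
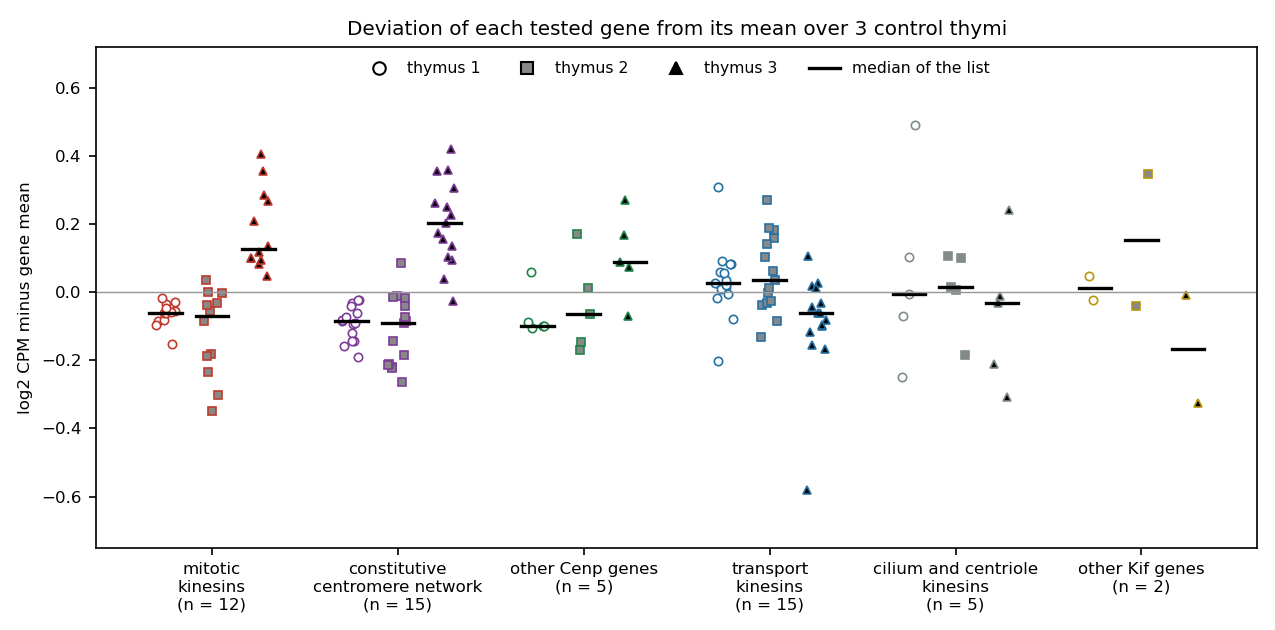
Deviation of log2 CPM from the mean of the gene over the 3 thymi, for the 54 tested genes by role, with 1 symbol per thymus and a bar at the median of the list. The thymus 3 medians are 0.13 for mitotic kinesins, 0.20 for the centromere network and −0.062 for transport kinesins.

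The size of the difference varied widely within the mitotic set. Kif18a, a motor that damps chromosome oscillations at microtubule ends, had 74.4, 60.8 and 103 CPM, the largest difference between thymus 3 and thymus 2 at 0.75 in log2. Kif20b followed at 0.66, Kif11 at 0.50, Kif15 at 0.47 and Cenpe at 0.39. The other 7 lay between 0.049 and 0.19, with Kif14 lowest at 39.0, 40.2 and 41.6 CPM. GC content moved with this split: the transcripts of the first 5 hold 38.2% to 42.9% GC and those of the other 7 46.3% to 55.2%. Across all genes the libraries differed in a trend with GC content, with a median difference of 0.18 in the 1068 genes of 40% to 42% GC and −0.11 in the 1538 of 54% to 56%. With that trend removed, the same 5 genes still had the largest differences, from 0.27 to 0.49 against 0.026 to 0.20, all 12 mitotic kinesins and 14 of 15 centromere network genes were highest in thymus 3, and so were 3 of the 15 transport kinesins.

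**Figure D4:**
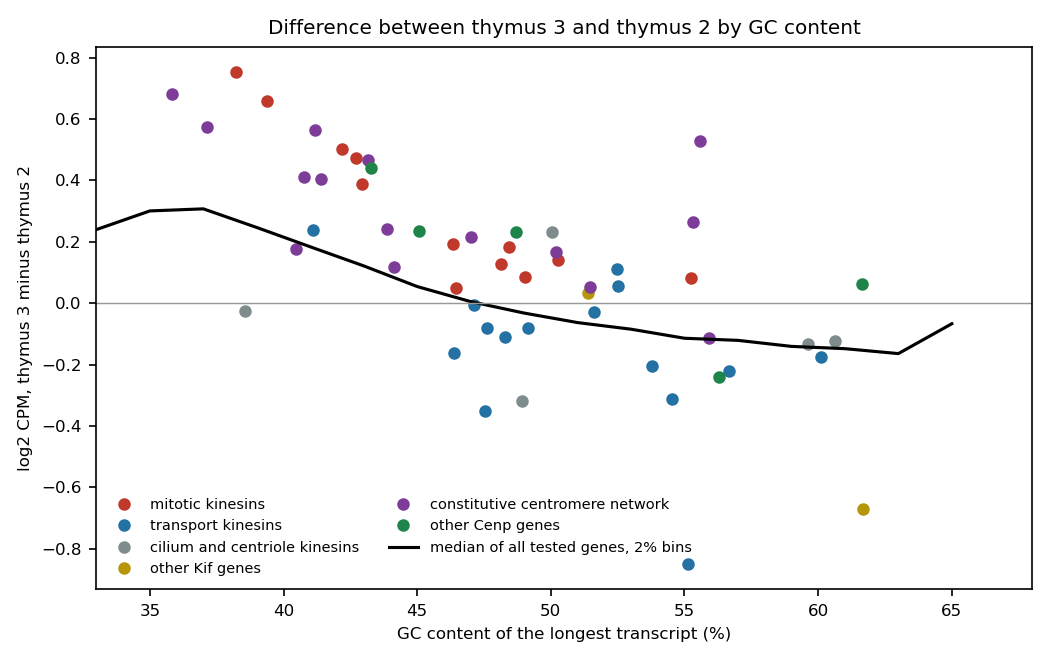
Difference in log2 CPM between thymus 3 and thymus 2 against the GC content of the longest transcript, 1 point for each of the 54 tested kinesin and centromere protein genes. The line gives the median of the tested genes in bins of 2% GC centred on 33% to 65%. The few genes outside these bins or without a GC value are left out of it. Mitotic kinesins reach from 0.049 to 0.75, and the line passes from 0.31 at 37% GC to −0.16 at 63%.

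Markers of dividing cells moved the same way. The 9 proliferation genes examined, Mki67 and Top2a among them, summed to 2738, 2590 and 3239 CPM, and 8 of the 9 were highest in thymus 3, all but Plk1. The partners of the members that the text has not yet named were followed in lists, also chosen with earlier results of these data known. All 10 outer kinetochore genes and all 7 genes tied to loading of CENP-A were highest in thymus 3, at median differences from thymus 2 of 0.31 and 0.30. Those lists include Spc25 at 88.5, 83.2 and 116 CPM and Hjurp, the CENP-A chaperone, at 548, 538 and 567. Of the 8 genes of the chromosomal passenger complex and the spindle midzone 5 were highest in thymus 3, at a median of 0.041, with Birc5 at 128, 139.5 and 163 CPM and Aurkb at 61.1, 69.9 and 67.3. Of the 9 kinesin light chains, accessory subunits and C-type kinesins 5 were highest there, at 0.031. Macrophage and dendritic markers summed to 980.3, 784 and 719.9 CPM and B cell markers to 65.9, 58.5 and 48.8, with 0 of 5 and 0 of 4 highest in thymus 3. The part of cell composition and of division rate in the differences of the members was not tested.

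Variation between thymi was then set against that of genes of like abundance. By edgeR's quasi-likelihood test of variability (Benjamini-Hochberg over all genes, one-sided), 0 of 54 members were called more variable than the trend, beside 0.0604% of all genes. The smallest adjusted p was 0.891, for Kif18a. At an unadjusted p under 0.05 there were 9 of 54, beside 4.42% of all genes: Kif18a, Kif20b, Kif15, Kif11, Cenpw, Cenpk, Cenpp, Cenpf and Cenpq, each highest in thymus 3. Negative binomial goodness of fit called 1, Kif18a, beside 0.737% of all genes, and the DESeq2 dispersion check 0, beside 0.489%.

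The differences did exceed the noise of counting reads in most members. By Poisson goodness of fit (edgeR, Benjamini-Hochberg 0.05), 33 of 54 members varied beyond it, beside 43.4% of all genes. They were 11 of 12 mitotic kinesins (all but Kif14), 11 of 15 centromere network genes, 4 of 5 other Cenp genes, 5 of 15 transport kinesins, and Kif24 and Kif26a. This test reaches smaller differences in genes with more reads, and the mitotic kinesins had 1028 to 10748 reads per library. Without thymus 3 the count was 14 of 55, beside 22.3% of all genes, and without thymus 1 or 2 it was 31 or 28, beside 39.7% or 26.2%.

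Some members share their locus with genes on the opposite strand. Reads on that strand made up 58.4%, 58.8% and 58.2% of the stranded reads at Cenpu in thymus 1, 2 and 3, where Primpol overlaps, 43.7%, 42.9% and 47.4% at Kif3c (1110002L01Rik) and 26.9%, 31.6% and 26.6% at Cenpo (Adcy3 and Ptrhd1). Their median over all genes tested was 0.186%, and 6 of the 54 tested members reached 5%, beside 13.0% of all genes. The levels above use only the transcribed strand. Counted on either strand, where reads in the overlap are ambiguous, Cenpu fell from 9.09 to 6.05 CPM, Kif3c from 33.1 to 27.2 and Kif20a, which overlaps Cdc23, from 71.7 to 51.7, while Kif22 stood at 112 in place of 88.0. No member shared more than 5.62% of its 50-base stretches with a transcript of another locus.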

How the data were processed

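RNA-seq gene counts of 3 control thymus libraries were used. Per the labels, RNA came from the AllPrep kit and went into TruSeq Stranded mRNA libraries. The submitters' processing notes name STAR 2.5.3a, DESeq2 and GRCm38. The sources used here do not give the annotation release. The authors deposited raw read counts per gene with no normalisation, and the layout is that of STAR's counting, in which multimapping reads are dropped. Column 4, the reverse strand, was used, since this kit places the reads of a transcript there and the opposite column held 2.36% to 2.43%. It held 66.4% to 69.1% of all reads, and the 4 summary lines entered no library size. Of 52636 identifiers, 52489 matched GENCODE M21.

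Counts were analysed with edgeR 4.0.16 and DESeq2 1.42.0 in R 4.3.3. A filter by edgeR on low counts (10 per library, 15 in total) kept 16548 genes. The TMM factors of thymus 1, 2 and 3 came to 1.00, 1.03 and 0.971, and log2 CPM used a prior count of 2. Variability was tested with an intercept-only robust quasi-likelihood fit (quasi-dispersion over the trended prior, F distribution with 5.24 prior degrees of freedom) and with goodness of fit at dispersion 0. Each was adjusted by Benjamini-Hochberg at 0.05 over all genes. Both were also run on simulated data, with no outcome given here. Those runs therefore do not say how small a difference the tests can call. The GC trend was removed per library by lowess with span 0.3.

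The members and all lists were chosen with earlier results of these data known. Levels in all thymi are given for the 5 most abundant genes per kilobase of each role list, the 3 largest and 3 smallest coefficients of variation, the 3 largest opposite-strand shares and genes below 1 CPM throughout. Other members and list partners named with values, Kif14, Kif18a, Cenpm and the related pairs among them, were chosen after their values were seen. Alternatives covered strand, scaling, filter, test, prior, GC content, length and each thymus left out.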

Additional observations from a re-analysis of the deposited data

How the results depend on the processing

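No paired analysis was possible because there is 1 group. Of 60 members, 53 reached 1 CPM in every thymus, 54 at a threshold of 0.5 CPM and 51 at 2 CPM, and 53 to 54 with a thymus left out. The count more variable than the trend was 0 with each thymus left out and under the other scalings, 3 of 58 with no filter (Cenpk, Kif18a and Kif20b) and 1 by negative binomial goodness of fit. The count beyond counting noise ranged from 14 to 31 with a thymus left out. The ratio of mitotic to transport medians was 2.88 in CPM without scaling by length, 4.203 per kilobase of the longest transcript, a choice added after the data were seen, and 3.90 to 4.46 with a thymus left out. With the GC trend removed, 3 transport kinesins were highest in thymus 3 and 1 cilium and centriole kinesin in thymus 2, and the median deviation of the latter list in thymus 3 was −0.13. With library totals that median was −0.073, and 0.055 in thymus 2, and 2 of the other Cenp genes were highest in thymus 3. The cause of these shifts was not tested. In all, 203 of 213 counts and list values under an alternative stayed close to the value reported. The median difference between thymus 3 and thymus 2 of the cilium and centriole kinesins was −0.12 and, with the GC trend removed, 0.0026. Of 360 single-gene levels under an alternative 350 stayed within 1 SD, and 7 of the other 10 came from counting either strand. Genes under 3 reads are below what these libraries resolve.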
